A study of Mus musculus with 8 samples.

Results

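Csf1, Iqgap1, Myo10, Bahcc1, St3gal1 and Shb are 6 of 21887 protein-coding mouse genes, and they were chosen by their large gain of bases under H3K27ac peaks, in the gene body and up to 50 kb from either end, in activated muscle stem cells. Because that gain selected them, their peak lengths in the same samples are a description, and no test is given for them. H3K27ac is the acetylation of lysine 27 on histone H3, and it was mapped by ChIPmentation, in which antibody-bound chromatin is tagmented before sequencing. Activated satellite cells (ASC) came from skeletal muscle of C57BL/6 mice 2.5 days after injury by BaCl2, and freshly isolated satellite cells (FISC) came from skeletal muscle of the same strain that had received no treatment. Each condition has 2 H3K27ac libraries with a deposited list of MACS2 peaks (build mm10). The 4 input libraries were not analysed here. The labels give no age, sex, sorting gate or transgene, and they do not say whether replicates came from separate animals, so the p-values below reflect a spread among libraries that could be purely technical.

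H3K27ac marks nucleosomes at active promoters and enhancers, and long stretches of acetylated chromatin within and beside a gene commonly hold several enhancers. Satellite cells are the stem cells of skeletal muscle: they lie quiescent under the basal lamina of the fibre, and after injury they enter the cell cycle, migrate and give rise to myoblasts. The 6 genes take part in signalling, cytoskeleton, chromatin and glycosylation. Csf1 encodes macrophage colony-stimulating factor, the ligand that sustains macrophages through the receptor Csf1r. Iqgap1 encodes a scaffold that binds Cdc42, Rac1 and kinases of the MAP kinase cascade, and Shb encodes an adaptor with an SH2 domain that couples receptor tyrosine kinases to downstream proteins. Myo10 encodes an unconventional myosin that moves to the tips of filopodia. Bahcc1 encodes a chromatin protein with a BAH domain, which in human cells binds trimethylated H3K27. St3gal1 encodes a sialyltransferase that caps core O-glycans of glycoproteins.

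In mm10, Csf1 spans chr3:107741048-107760469 on the minus strand and is 19.4 kb long, the shortest of the set. Iqgap1 lies at chr7:80711583-80815549 on the minus strand, and Shb at chr4:45423276-45530828, also on the minus strand. Myo10 is the longest gene, 191.1 kb at chr15:25622550-25813673 on the plus strand. Bahcc1 lies at chr11:120232870-120292297 on the plus strand. St3gal1 lies at chr15:67102875-67176946, and distances there are given from the lower-coordinate end.

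The promoters of Csf1, Iqgap1 and Myo10 are shown because acetylation at the start site can be read against them: the Csf1 window was under a peak in every library, the Iqgap1 window and the first Myo10 window were whole under peaks in both ASC libraries and in part in FISC, and the second Myo10 window was under no peak. They are RefSeq sequences on GRCm38.p6, the assembly of mm10, from 250 bases before to 50 after a start site, 5′ to 3′ on the gene's strand. The windows are chr3:107760420-107760719 (minus) for Csf1, chr7:80803282-80803581 (minus) for Iqgap1, chr15:25622300-25622599 (plus) for the first start of Myo10 and chr15:25752956-25753255 (plus) for its second. Capitals mark matches to the GC box GGGCGG on either strand.
Csf1: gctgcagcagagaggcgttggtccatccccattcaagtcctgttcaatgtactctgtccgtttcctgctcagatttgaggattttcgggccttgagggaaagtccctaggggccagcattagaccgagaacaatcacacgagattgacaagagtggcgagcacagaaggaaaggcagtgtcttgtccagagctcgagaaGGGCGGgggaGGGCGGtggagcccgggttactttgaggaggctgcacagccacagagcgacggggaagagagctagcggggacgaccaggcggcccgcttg
Iqgap1: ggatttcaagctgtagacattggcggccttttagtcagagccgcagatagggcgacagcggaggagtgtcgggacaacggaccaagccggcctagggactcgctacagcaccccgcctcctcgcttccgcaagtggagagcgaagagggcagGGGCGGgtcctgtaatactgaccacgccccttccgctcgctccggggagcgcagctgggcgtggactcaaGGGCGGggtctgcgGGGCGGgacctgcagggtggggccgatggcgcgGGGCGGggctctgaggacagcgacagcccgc
Myo10, first start: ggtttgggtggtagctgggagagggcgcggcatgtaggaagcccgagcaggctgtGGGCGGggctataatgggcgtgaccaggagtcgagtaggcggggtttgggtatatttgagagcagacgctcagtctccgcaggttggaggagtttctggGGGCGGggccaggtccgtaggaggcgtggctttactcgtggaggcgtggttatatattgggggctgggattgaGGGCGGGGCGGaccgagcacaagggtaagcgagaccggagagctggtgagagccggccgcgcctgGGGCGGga
Myo10, second start: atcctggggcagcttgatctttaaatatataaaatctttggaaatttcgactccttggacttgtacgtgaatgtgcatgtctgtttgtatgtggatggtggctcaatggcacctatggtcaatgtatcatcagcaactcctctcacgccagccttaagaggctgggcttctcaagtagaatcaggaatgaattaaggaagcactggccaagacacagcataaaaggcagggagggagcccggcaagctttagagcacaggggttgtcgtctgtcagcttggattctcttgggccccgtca

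Peaks covered all 300 bases of the Csf1 window in each of the 4 libraries. At Iqgap1 they covered 300 and 300 bases in ASC, against 94 and 115 in FISC. At the first start of Myo10 they covered 300 and 300 bases in ASC, against 98 and 133 in FISC. The second start of Myo10, far inside the gene, had 0 covered bases in every library, so peaks called at a Myo10 promoter were all at the first start. Shb had 300 and 300 covered bases in ASC, against 172 and 300 in FISC. Bahcc1 (window chr11:120232697-120232996) had 0 and 212 covered bases in ASC and 0 in both FISC libraries, although peaks lay on either side. In ASC replicate 1 these ended at 120232565 and resumed at 120232999. In FISC they ended at 120231700 and 120231677 and resumed at 120233366 and 120233172.

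All but 1 of the windows were rich in G and C. GC content was 58.7% at Csf1, 68.3% at Iqgap1, 64.7% at the first start of Myo10, 64.7% at Bahcc1 and 75.0% at Shb, against 48.0% at the second start of Myo10 and a median of 52.7% over 32851 RefSeq promoters. The GC box (GGGCGG, the core of Sp1 sites) matched 2 times at Csf1, 4 at Iqgap1, 5 at the first Myo10 start (overlapping matches counted) and 2 at Shb, but 0 times at Bahcc1 and at the second Myo10 start. Of all promoters, 35.7% hold it. A further 7 motifs were searched on both strands. CCAAT (in 37.4% of all promoters) matched 3 times at Bahcc1 and 1 time each at Iqgap1, Shb and the first Myo10 start. The E-box CANNTG (in 72.3%) matched only at Iqgap1, 2 times, and the second Myo10 start held 1 TATA box (TATAAA, in 13.6%) and 1 TEAD site (GGAATG, in 14.7%). None of the 6 windows held the AP-1 site TGANTCA (in 7.81%), the RUNX site TGTGGT (in 16.8%) or the cyclic AMP response element TGACGTCA (in 1.79%). A match describes the letters in the window only.

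Around the start sites that had peaks, these were also longer in ASC. Stretches of 2 kb on either side of a start are too short to hold gains as long as those over the whole loci. Within 2 kb of the start, peaks covered 3.0 and 3.21 kb at Csf1 in ASC, against 1.93 and 2.18 kb in FISC. At Iqgap1 they covered 2.22 and 2.34 kb in ASC, against 0.939 and 1.27 kb in FISC. At the first Myo10 start the values were 3.08 and 3.15 kb in ASC, against 2.01 and 2.0 kb in FISC. Bahcc1 (3.57 and 3.62 kb in ASC, against 2.34 and 2.51 kb in FISC) and Shb (2.87 and 3.03 kb in ASC, against 1.89 and 2.14 kb in FISC) had the same order of libraries. Each of these 5 genes thus had peaks within 2 kb of its start in FISC as well as in ASC. At Bahcc1 the peaks of both FISC libraries and of ASC replicate 1 left the promoter window uncovered.

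The bulk of the gain lay more than 2 kb from the genes' own ends, as gains far longer than those short stretches must. Over the gene body and both 50 kb flanks, peaks covered 35.2 and 43.5 kb at Shb in ASC, against 8.43 and 8.84 kb in FISC. Myo10 had 37.0 and 44.2 kb in ASC, against 9.60 and 11.7 kb in FISC. St3gal1 had 33.3 and 40.2 kb in ASC, against 9.29 and 10.6 kb in FISC. In these 3 genes, and in Csf1, even the lower ASC library held more than 3 times the covered length of the higher FISC library. Csf1 had 29.8 and 34.7 kb in ASC, against 7.28 and 7.75 kb in FISC. Bahcc1 had 38.8 and 42.6 kb in ASC, against 18.5 and 14.7 kb in FISC. Iqgap1 had 35.6 and 43.6 kb in ASC, against 17.4 and 15.2 kb in FISC. Bahcc1 and Iqgap1 had the longest FISC coverage of the set, and at all 6 genes both ASC values lay above both FISC values. That order held for 71.2% of the 17542 genes covered in at least 2 libraries, and since it is what selected the 6 genes, their count says nothing further.

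**Figure D1:**
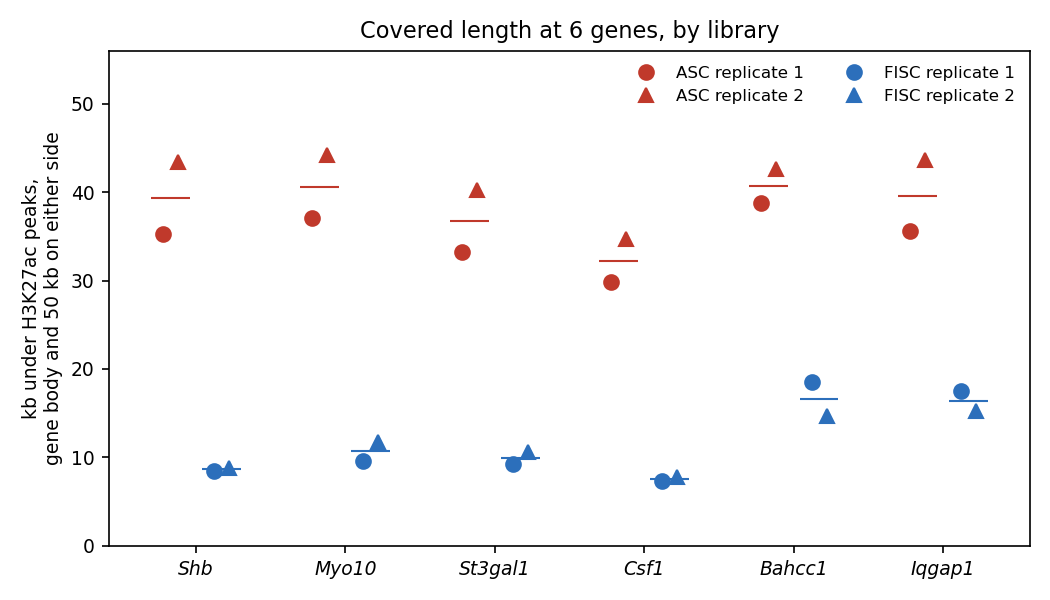
Kb under H3K27ac peaks (vertical axis) in the gene body and 50 kb on either side of each of the 6 genes. Points are single libraries (red ASC, blue FISC, circles replicate 1, triangles replicate 2) and short lines are means of 2 libraries. ASC points lie between 29.8 and 44.2 kb and FISC points between 7.28 and 18.5 kb, with no overlap at any gene.

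The mean difference, ASC minus FISC, was 30.7 kb at Shb, 29.9 kb at Myo10, 26.8 kb at St3gal1, 24.7 kb at Csf1, 24.1 kb at Bahcc1 and 23.3 kb at Iqgap1. Bases more than 2 kb from the gene's own ends held 29.8 kb of the difference at Shb and 22.3 kb of that at Csf1. As a ratio of mean lengths, Shb (4.56) and Csf1 (4.29) led, Myo10 (3.81) and St3gal1 (3.69) followed, and Bahcc1 (2.45) and Iqgap1 (2.42) came last. By difference, Shb ranked 17 of 21887 genes, Myo10 19, St3gal1 27, Csf1 40, Bahcc1 46 and Iqgap1 54. The median difference over covered genes was 1.32 kb and the 99th percentile was 16.3 kb, so the 6 are among the longest gains but are not the 6 longest. The ASC libraries differed from each other by several kb at each gene, ASC replicate 2 always being the longer, and neighbours in this order, such as Csf1 and Bahcc1, lay closer together than that spread. Summed over the 6 genes, peaks covered 209.8 and 248.7 kb in ASC (mean 229.3 ± 27.5 kb, SD, n = 2), against 70.5 and 68.9 kb in FISC (69.7 ± 1.13 kb, SD, n = 2). As a share of the window, which allows genes of unequal length to be compared, Csf1 was the most densely covered in ASC (25 and 29%, against 6.10 and 6.49% in FISC). Bahcc1 followed (24.3 and 26.7% in ASC, against 11.6 and 9.23% in FISC), and Myo10, the longest gene, was the least densely covered (12.7 and 15.2% in ASC, against 3.30 and 4.03% in FISC).

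**Figure D2:**
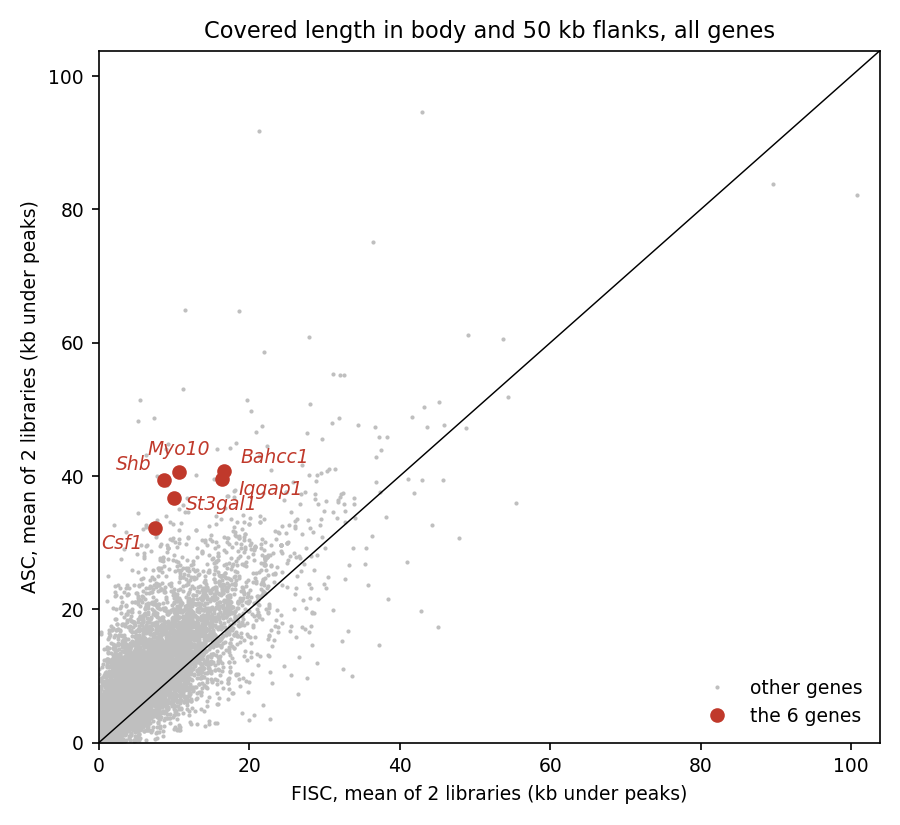
Mean kb under H3K27ac peaks in the gene body and 50 kb flanks in ASC (vertical axis) against FISC (horizontal axis), 1 point for each of 21887 genes, the 6 genes in red. The line marks equal length. The 6 red points lie between 32.3 and 40.7 kb in ASC and between 7.52 and 16.6 kb in FISC, above the bulk of genes at the same FISC length.

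The lists as a whole were longer in ASC, and the measured lengths should be read beside that. The ASC lists held 50154 and 54700 peaks over 49.2 and 57.7 Mb, and the FISC lists 45014 and 43092 peaks over 34.4 and 33.7 Mb. The files hold no read counts, so depth is unknown. When each list was reduced to its strongest peaks at the covered length of the shortest list, the 6 genes kept the order of libraries: Csf1 had 21.0 and 21.0 kb in ASC, against 7.28 and 7.75 kb in FISC, and Iqgap1, the closest, had 26.8 and 24.5 kb in ASC, against 17.0 and 15.2 kb in FISC. Myo10 then had 27.7 and 27 kb in ASC, against 9.60 and 11.7 kb in FISC. The reduction fell mostly on ASC: 18090 and 14488 peaks were left in ASC, against 42792 and 43092 in FISC. It thus set the strongest ASC peaks against nearly all FISC peaks. The cells carried peaks at satellite cell genes in both conditions: of 10 markers (Pax7, Myf5, Myod1 and others) none was without a peak, and their summed length within the gene and 2 kb around it was 92.0 and 112.2 kb in ASC, against 78.8 and 81.0 kb in FISC. That order rests on Met (31.6 and 39.9 kb in ASC, against 6.86 and 7.5 kb in FISC): the other 9 summed to 60.3 and 72.3 kb in ASC, against 71.9 and 73.5 kb in FISC. Calcr (0.21 and 0.742 kb in ASC, against 5.49 and 3.89 kb in FISC) and Chrdl2 (0.818 and 0.759 kb in ASC, against 4.86 and 7.53 kb in FISC), genes of quiescent satellite cells, were shorter in ASC. Markers of other cells had less. The 10 myeloid markers summed to 5.69 and 8.97 kb in ASC, against 3.88 and 3.6 kb in FISC. Of these, Ptprc, Itgam, Adgre1, Lyz2, Tyrobp and Cx3cr1 were at 0 in every library. The other 4 had peaks: Cd68 (1.87 and 3.5 kb in ASC, against 1.55 and 1.05 kb in FISC), Spi1 (2.84 and 3.50 kb in ASC, against 1.54 and 1.75 kb in FISC), Fcgr3 (0.552 and 1.33 kb in ASC, against 0.211 and 0.443 kb in FISC) and Csf1r (0.428 and 0.649 kb in ASC, against 0.579 and 0.364 kb in FISC). Fibro-adipogenic markers summed to 9.20 and 11.8 kb in ASC, against 12 and 12.5 kb in FISC, with Col1a1, Dcn, Lum and Mfap5 at 0 throughout. Most of this length lay at Dpt and Cd34, both longer in FISC. Dpt had 3.54 and 5.36 kb in ASC, against 7.75 and 7.33 kb in FISC. Cd34 had 3.56 and 3.7 kb in ASC, against 4.02 and 5.19 kb in FISC. Ly6a (1.44 and 2.42 kb), Pdgfra (0.282 and 0.328 kb) and Pi16 (0.378 and 0.024 kb) had peaks in ASC and none in FISC. Dpp4 had 0.203 kb in FISC replicate 1 only. Endothelial markers summed to 12.9 and 15.0 kb in ASC, against 10.5 and 12.2 kb in FISC, with Tie1, Emcn and Sox17 at 0 throughout. Cdh5 had 3.39 and 3.91 kb in ASC and 0 in FISC. Pecam1 (3.49 and 3.88 kb in ASC, against 4.44 and 4.85 kb in FISC) and Tek (2.0 and 2.59 kb, against 2.7 and 2.75 kb) were longer in FISC. Vwf (2.58 and 3.07 kb in ASC, against 2.28 and 2.24 kb in FISC) was longer in ASC. Erg and Cldn5 overlapped between conditions, and Kdr had a peak in FISC replicate 2 only. The part of other cells in the gains was not tested.

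Csf1 differed from the other 5 genes in where its peaks lay. Outside the gene body, in the flanks, peaks covered 22.8 and 25.2 kb in ASC, against 4.36 and 5.37 kb in FISC, a difference of 19.1 kb that ranked 12 of all genes for flanks. Within the body they covered 7.01 and 9.48 kb in ASC, against 2.93 and 2.38 kb in FISC. Shb, Myo10, St3gal1 and Bahcc1 gained chiefly inside the body. Shb's body had 31.6 and 39.8 kb in ASC, against 6.04 and 6.86 kb in FISC, which left 1.47 kb of its difference to the flanks. Myo10's body had 30.5 and 36.8 kb in ASC, against 6.63 and 8.57 kb in FISC. The bodies of St3gal1 (26.0 and 31.7 kb in ASC, against 6.98 and 7.89 kb in FISC) and Bahcc1 (27.7 and 30.5 kb in ASC, against 9.89 and 6.90 kb in FISC) were alike in this. Iqgap1 was intermediate, with a difference of 13.8 kb in the body and 9.44 kb in the flanks. Its flank value nets a gain and a loss. Regions upstream had 12398 and 14752 bases in ASC, against 1106 and 937 in FISC. Regions downstream had 2757 and 4323 bases in ASC, against 7760 and 5550 in FISC. At Shb, Myo10, St3gal1 and Bahcc1, then, the long gains are mostly intragenic, and at Iqgap1 they lie in the body and upstream. Csf1 is also the shortest of the 6 genes, and the part of gene length in this was not tested.

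A stricter measure of distal acetylation counts only bases more than 2 kb from every RefSeq start of a protein-coding gene. It assigns each base to the nearest such start and leaves out bases more than 50 kb from it. For 4395 genes without a RefSeq promoter entry, St3gal1 and the neighbours in rank Sh3pxd2a and Gipc2 among them, both ends of the gene stood for starts, which can widen the stretch counted for them. On it, Myo10 had 29.5 and 34.9 kb in ASC, against 4.72 and 6.61 kb in FISC, and ranked 4 of all genes. St3gal1 (rank 5), Bahcc1 (rank 9), Csf1 (rank 11) and Shb (rank 16) were also near the top, and Iqgap1 (20.8 and 24.3 kb in ASC, against 7.86 and 7.83 kb in FISC) ranked 40. The genes ranked directly around them were Itgb6 (rank 3), Sh3pxd2a (rank 6), Myh9 (rank 8), Arhgef3 (rank 10), Arhgap22 (rank 12), Gipc2 (rank 15), Niban2 (rank 17), Cd82 (rank 39) and Tcf7l2 (rank 41), and the longest gain of all was at Septin9. Itgb6 had 33.9 and 36.9 kb in ASC, against 7.14 and 6.91 kb in FISC, and Tcf7l2 had 15.1 and 16.5 kb in ASC, against 1.29 and 1.78 kb in FISC. The 6 genes are therefore part of a longer series of genes with distal gains of this size.

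Joining the peaks of all libraries wherever they overlapped by at least 1 base gave 188 regions touching the 6 loci. Of these, 54 had a peak in both ASC libraries and in neither FISC library (28.7%, against 19.9% of 72585 regions in the genome), and 43 had a peak in all 4 libraries (22.9%, against 26.9%). Another 6 had a peak in both ASC libraries and 1 FISC library, and 5 had the opposite pattern, a peak in each of the 2 FISC lists and in no ASC list (2.66%, against 7.30% in the genome). The other 80 regions had other combinations of libraries, such as 1 ASC or 1 FISC library alone, and had a median width of 269 bases. The 54 ASC regions had a median width of 929 bases (genome, 707), and the 43 shared regions a median of 2854 bases (genome, 1800). Both kinds were thus wider here than in the genome, and regions new in ASC made up more of the total. Longer coverage in ASC chose the genes, so these comparisons with the genome describe the loci and test nothing. By gene, regions of the ASC kind numbered 12 at Myo10, 11 at Iqgap1, 9 at Shb, 9 at St3gal1, 8 at Csf1 and 5 at Bahcc1.

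**Figure D3:**
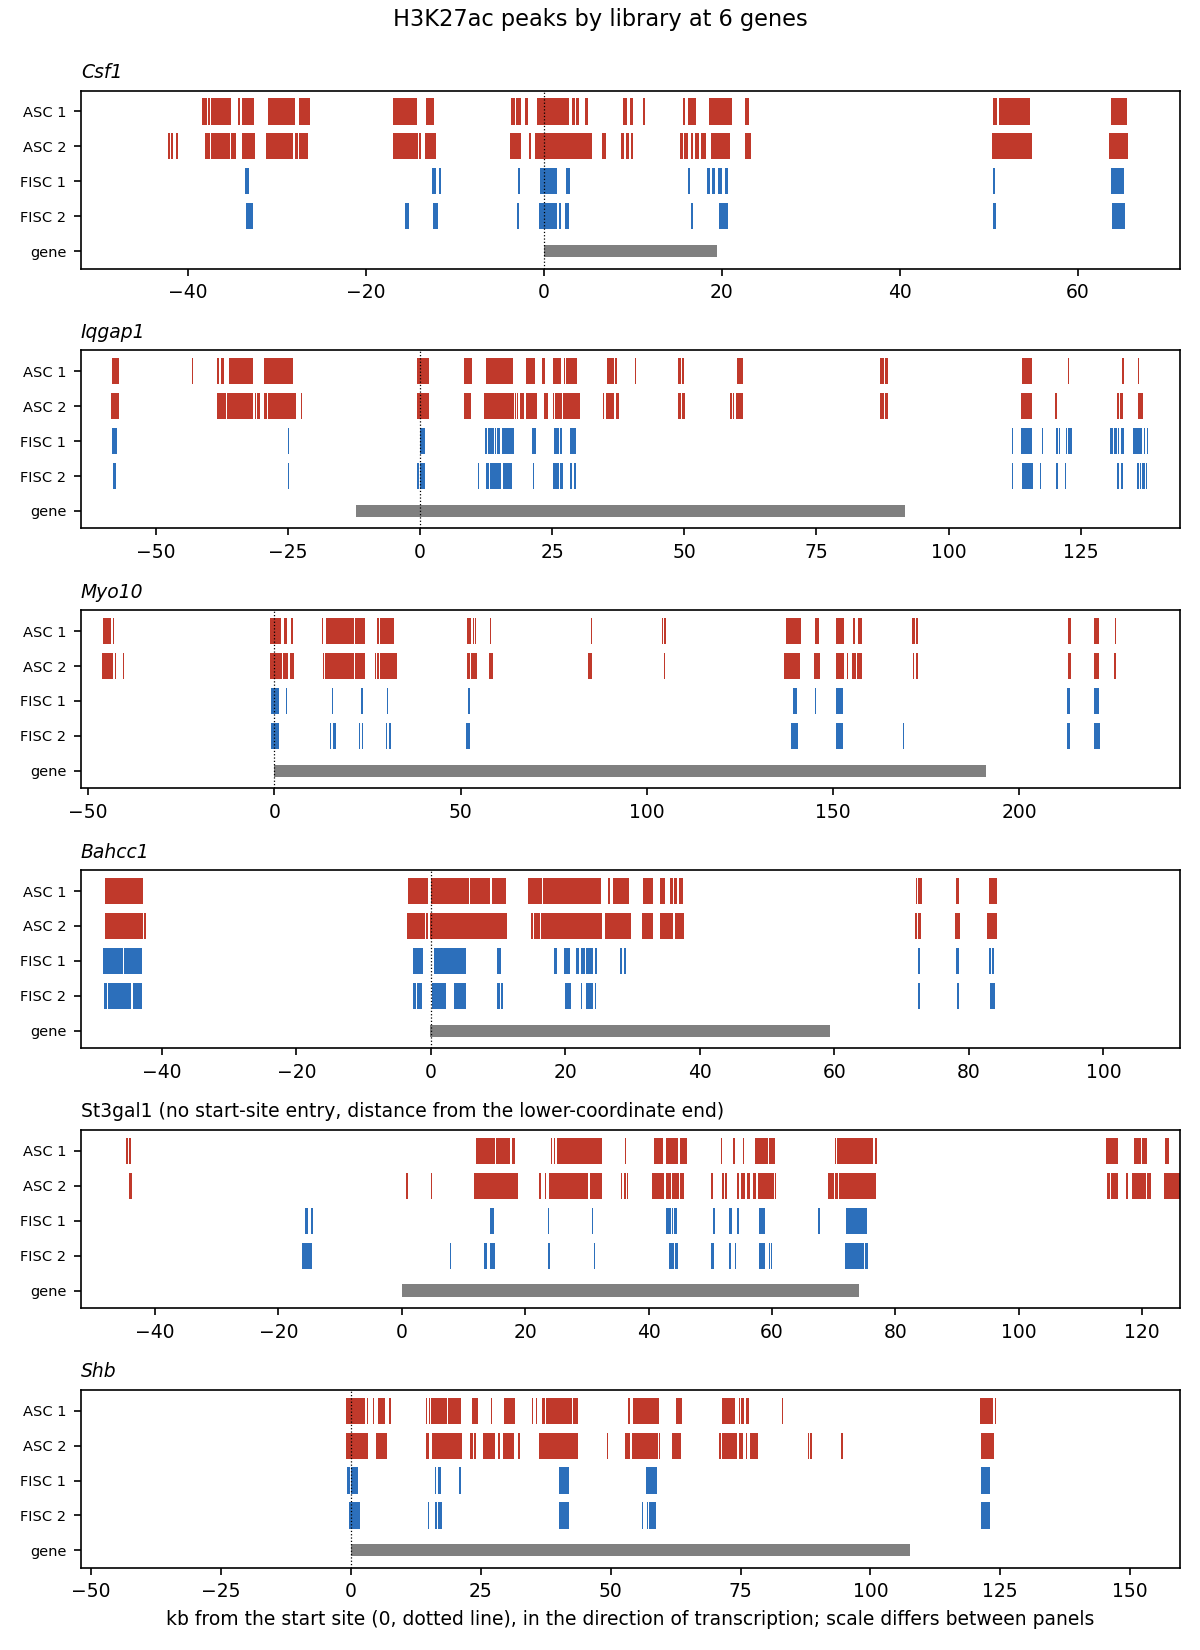
Peaks of each library (red ASC, blue FISC) at the 6 genes, with the gene span in grey. The horizontal axis is kb from the 5′-most RefSeq start with a promoter entry, in the direction of transcription (for St3gal1, from the lower-coordinate end). Red blocks are longer and more numerous, 160 and 180 peaks in ASC against 95 and 92 in FISC, and many long red blocks stand over short blue ones.

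Csf1 showed new regions upstream and one long downstream region. Upstream, chr3:107788442-107791670, centred 29.6 kb before the start, had 3028 and 3010 bases under peaks in ASC and 0 in both FISC libraries. Chr3:107795635-107797840, 36.3 kb before the start, had 2204 and 2120 bases in ASC and 0 in FISC. Between them, chr3:107792959-107794386 had peaks in all 4 libraries, 1381 and 1417 bases in ASC against 406 and 836 in FISC. The upstream flank of Csf1 therefore alternated between regions new in ASC and a region already marked in FISC. Closer to the gene, chr3:107774632-107777440 had 2677 and 2775 bases in ASC, against 0 and 449 in FISC. Downstream of the gene, chr3:107705646-107710086 had 4011 and 4441 bases in ASC, against 200 and 334 in FISC, the most uneven shared region of this locus. The start region itself, chr3:107755001-107761479, had 4650 and 6479 bases in ASC, against 2339 and 2667 in FISC, and reached from upstream of the start into the gene. The long non-coding gene Gm40121 overlaps every region given here, and the start of Ahcyl1, the only other protein-coding gene of the window, lay in a downstream region with 1846 and 2177 bases in ASC, against 1487 and 1490 in FISC.

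Iqgap1 had its longest gains upstream. The region chr7:80826798-80832937, 26.5 kb before the start, had 5478 and 5920 bases in ASC, against 213 and 336 in FISC. Next to it, chr7:80834953-80839970 had 4483 and 4931 bases in ASC and 0 in FISC, and was the widest of the 54 regions with no FISC peak (5018 bases). Both lie beyond the upstream end of the gene, where FISC had short peaks or none. In the body, chr7:80785531-80791162, 15.0 kb into the gene, was nearly equal, with 5229 and 5632 bases in ASC, against 4482 and 4414 in FISC. The side toward Crtc3, a coactivator of CREB, ran the other way: over the Crtc3 gene peaks covered 2.18 and 3.6 kb in ASC, against 6.75 and 4.77 kb in FISC. All 3 Iqgap1 regions that both FISC lists but no ASC list held lay on that side. On the upstream side, peaks over the part of Zscan2 in the window covered 0.928 and 1.04 kb in ASC, against 0.811 and 0.601 kb in FISC. The 50 kb window of Iqgap1 thus holds a flank with more acetylation in ASC and a flank with less.

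Shb, the other signalling protein of the set, had its gain spread over the gene. Its longest region, chr4:45487032-45494593, 40.0 kb into the gene, had 6511 and 7508 bases in ASC, against 1788 and 1917 in FISC. At chr4:45509496-45515375, 18.4 kb into the gene, peaks covered 5559 and 5758 bases in ASC, against 1153 and 1170 in FISC. At chr4:45471582-45476666 they covered 5000 and 4998 bases in ASC, against 1852 and 1807 in FISC. Each of these 3 regions held a peak in both FISC libraries. Others were new, among them chr4:45456430-45459370 (2291 and 2941 bases in ASC and 0 in FISC) and chr4:45499201-45501504 (2069 and 2160 bases in ASC and 0 in FISC). All 9 regions with no FISC peak lay in the gene body, and no region lay wholly upstream of the gene in any library. Over the part of the neighbour Slc25a51 in the window, peaks covered 2.03 and 1.97 kb in ASC, against 1.11 and 1.02 kb in FISC. The part of the neighbour Dcaf10 in the window had 0 kb in every library.

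Myo10 carried a block of acetylation in its first 35 kb. The region chr15:25636170-25643953, 17.5 kb into the gene, had 7514 and 7784 bases in ASC, against 236 and 951 in FISC, and was a single peak in each ASC library. Next to it, chr15:25644142-25646896 had 2663 and 2755 bases in ASC, against 556 and 851 in FISC. Further in, chr15:25650980-25655549 had 3684 and 4570 bases in ASC, against 265 and 928 in FISC. In FISC each of these 3 regions held only short peaks. A distant region of the body, chr15:25773230-25775447, 151.8 kb from the start, was alike in all libraries, with 2215 and 2202 bases in ASC, against 1965 and 1983 in FISC. Upstream, chr15:25576308-25579190 had 2387 and 2883 bases in ASC and 0 in FISC. The region at the start of Retreg1, the downstream neighbour, which encodes an endoplasmic reticulum protein, had 1371 and 1439 bases in ASC, against 1516 and 1557 in FISC. Over the whole part of Retreg1 in the window, peaks covered 1.17 and 1.39 kb in ASC, against 0.796 and 0.837 kb in FISC, and chr15:25848049-25848677 inside it had 469 and 629 bases in ASC and 0 in FISC.

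Bahcc1 had the widest regions of the set. The region chr11:120232785-120244314, which begins just before the start and runs into the gene, had 10647 and 11530 bases in ASC, against 5371 and 4513 in FISC. In ASC replicate 2 it was a single peak of 11530 bases, the longest at the 6 genes. The next region, chr11:120247448-120258327, had 10540 and 10250 bases in ASC, against 3824 and 2391 in FISC. Together they hold most of the bases at Bahcc1 in ASC, and both were already marked in FISC. Upstream, chr11:120184164-120190143 showed no such difference, with 5606 and 5635 bases in ASC, against 5720 and 5237 in FISC. It lies 45.8 kb before the start, where the RNA genes Gm9734 and 2810410L24Rik are annotated. Of the 5 regions with no FISC peak, 4 lay together from 32.3 to 36.9 kb into the gene.

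St3gal1 had shared regions that were many times longer in ASC. The region chr15:67126538-67135364 had 7626 and 8260 bases in ASC, against 495 and 663 in FISC. At chr15:67114545-67121672 peaks covered 5838 and 7040 bases in ASC, against 637 and 1185 in FISC. At the higher-coordinate end of the gene, chr15:67173037-67179826 had 6250 and 6505 bases in ASC, against 3494 and 3521 in FISC. Beyond that end, chr15:67217007-67218958 (1880 and 1645 bases in ASC and 0 in FISC) and chr15:67221186-67223608 (1916 and 2281 bases in ASC and 0 in FISC) were new in ASC. A region 15.2 kb beyond the lower-coordinate end, chr15:67086787-67088497, ran the other way, with 0 bases in both ASC libraries and 967 and 1476 in FISC. It was the widest of the 5 regions held by each FISC list and by no ASC list.

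At the shared regions the ASC peaks were longer. Over the 43 regions with peaks in all 4 libraries, the median was 2709 bases under peaks in ASC and 1181 in FISC, and the median ratio was 2.21, against 1.22 over 19493 such regions in the genome. The mean was longer in ASC in 39 of the 43, against 74.5% of the genome's regions. By gene, the median ratio was 2.73 at Shb, 2.70 at Myo10, 2.36 at St3gal1, 2.24 at Csf1, 2.05 at Bahcc1 and 1.69 at Iqgap1. The 4 exceptions were 3 regions of Iqgap1 on the Crtc3 side and the Retreg1 start at Myo10. Since longer coverage in ASC chose the genes, the comparison with the genome describes how the gain is distributed and tests nothing. In the window of each of the 6 genes the highest fold enrichment over background was larger in both ASC libraries than in FISC. At Myo10 it was 40.3 and 42.5 in ASC, against 16.7 and 18.6 in FISC. In other windows some of the highest peaks lay in regions with starts of other genes. These were Ahcyl1 (Csf1 window), Gm46852 (Shb), 2900052L18Rik (Bahcc1) and Crtc3 (Iqgap1). The peak over the start of Csf1 itself had a fold of 30.4 and 30.3 in ASC, against 16.7 and 14.7 in FISC. These folds are the authors' values, which depth and background also set. The median fold of a locus was higher in both ASC libraries at Csf1 and Bahcc1 (7.51 and 7.25 in ASC, against 5.38 and 5.71 in FISC, at Bahcc1), lower in both at Shb (4.48 and 4.35 in ASC, against 6.46 and 5.0 in FISC), and overlapped between conditions at Iqgap1, Myo10 and St3gal1.

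**Figure D4:**
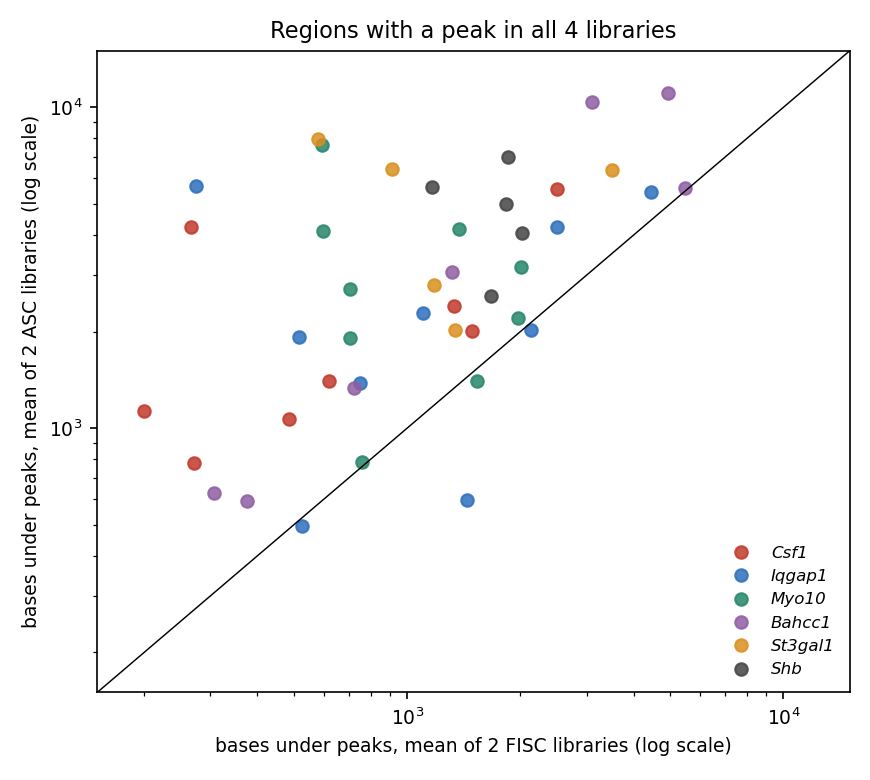
Bases under peaks in the 43 regions with a peak in all 4 libraries, mean of 2 ASC libraries (vertical axis) against mean of 2 FISC libraries (horizontal axis), both on log scales, coloured by gene. The line marks equal length. All but 4 points lie above it, with the medians at 2709 bases in ASC and 1181 bases in FISC.

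The gained bases, those under an ASC peak and under no FISC peak, were divided by the state of their region in FISC. At the 6 genes together, 54.6% (ASC replicate 1) and 49.7% (ASC replicate 2) of them lay in regions with a peak in both FISC libraries, against 34.2 and 34.3% of such bases in the genome. Regions with no FISC peak held 39.1 and 43.6% at the 6 genes, against 57.4 and 57.4% in the genome. More of the gained bases at these genes thus lay in regions with peaks in both FISC libraries. Such a region counts whole, even where its FISC peaks are short: chr3:107705646-107710086 at Csf1 held 200 and 334 bases in FISC. Since longer coverage in ASC chose the genes, the comparison with the genome is a description and tests nothing. Bahcc1 had the highest share in such regions, 69.5 and 63.7%, and Iqgap1 the lowest, 41.4 and 37.9%. Myo10 (60.8 and 54.9%) and St3gal1 (58.8 and 52.9%) lay above Shb (53.5 and 45.8%) and Csf1 (43.2 and 44.4%). Equal covered length removed mostly ASC peaks. With all lists cut to it the shares were 71.3 and 73.4% at the 6 genes, against 50.8 and 61.0% in the genome. With only peaks of at least 5-fold enrichment they were 35.1 and 34.1%, against 28.5 and 30.6%, so at that threshold most of the gain counted as new and the distance from the genome was small.

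**Figure D5:**
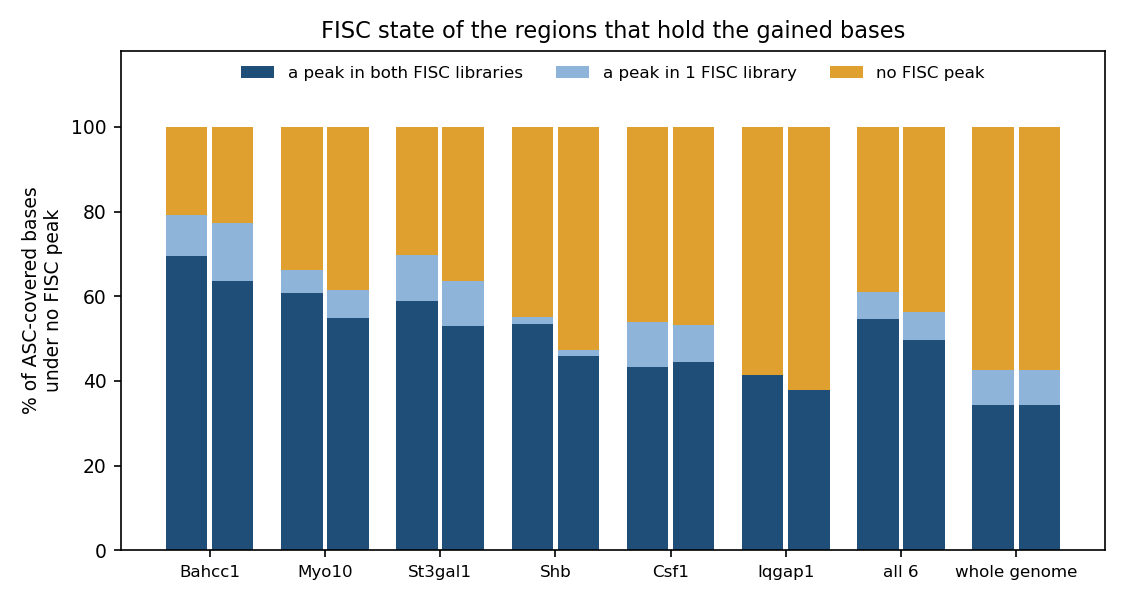
Percent of the bases under an ASC peak and no FISC peak (vertical axis) that lie in regions with a peak in both FISC libraries (dark blue), in 1 (light blue) or in none (orange). Each pair of bars is ASC replicate 1 (left) and ASC replicate 2 (right), for each gene, the 6 genes together and the whole genome. The dark share runs from 69.5 and 63.7% at Bahcc1 to 41.4 and 37.9% at Iqgap1, against 34.2 and 34.3% in the genome.

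The genes most like 5 of the 6 were taken as those at least 1 Mb away with the smallest Euclidean distance over the 4 values of covered length. Shb was nearest to Met, the receptor of hepatocyte growth factor and a satellite cell marker (33.9 and 43.5 kb in ASC, against 8.46 and 9.62 kb in FISC, distance 1.55 kb). St3gal1 was nearest to Mtss1, a membrane-bending actin regulator (32.2 and 40.6 kb in ASC, against 9.68 and 10.8 kb in FISC, distance 1.18 kb). Iqgap1 and Bahcc1 were nearest to each other (3.49 kb), and Csf1 was nearest to the predicted gene Gm29975 (1.35 kb). With 4 values from the same libraries, such likeness describes length only.

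Other genes of the pathways of the 6 were read with a limma fit over all 17542 covered genes, Benjamini-Hochberg adjusted at a threshold of 0.05. It called 8815 genes longer in ASC (50.3%) and 963 shorter (5.49%), and 9.91% of genes had both ASC values below both FISC values. The split depends on scaling. After dividing by each library's total covered length the calls were 4062 higher and 6089 lower of 17542 genes, the median difference moving to -0.39 kb from 1.32 kb. With lists at equal covered length, cut mostly in ASC, they were 3387 higher and 3458 lower of 16817 genes, with a median of 0.14 kb. The scaled and equal-length counts of each list below are to be read beside these. Values are kb under peaks in the body and 50 kb flanks, and neighbouring genes can share peaks.

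Of 17 genes of CSF1 receptor signalling, 10 were called higher (all genes, 50.3%), 1 lower (all genes, 5.49%) and 6 neither. The median difference was 2.2 kb. Il34, the other ligand of the CSF1 receptor, had 39.0 and 49.4 kb in ASC, against 18.1 and 16.9 kb in FISC (limma adjusted p = 0.000926). Grb2, an adaptor that links receptors to Ras, had 17.0 and 19.2 kb in ASC, against 6.29 and 6.71 kb in FISC (limma adjusted p = 6.38e-05). Both were also called after scaling, and Il34 but not Grb2 (adjusted p = 0.0639) at equal covered length. Spi1, a myeloid transcription factor, was called higher (17.6 and 19.7 kb in ASC, against 10.6 and 10.5 kb in FISC, limma adjusted p = 0.00163) but not after scaling (adjusted p = 0.0555) or at equal covered length (adjusted p = 0.563). Within its own body and 2 kb around it, Spi1 had 2.84 and 3.50 kb in ASC, against 1.54 and 1.75 kb in FISC. Csf2rb, the shared receptor chain of GM-CSF, IL-3 and IL-5, was lower, with 2.20 and 3.68 kb in ASC, against 14.8 and 16.5 kb in FISC (limma adjusted p = 1.31e-05). After scaling, 5 genes of this list were called higher and 4 lower, and at equal covered length 2 higher and 5 lower.

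Of 23 partners and relatives of IQGAP1, 13 were called higher (all genes, 50.3%) and 0 lower (all genes, 5.49%). The median difference was 2.53 kb, and after scaling 3 were higher and 7 lower (at equal covered length, 3 and 3). Cd44, the hyaluronan receptor, had 36.6 and 43.4 kb in ASC, against 7.65 and 7.87 kb in FISC (limma adjusted p = 3.68e-05). Ezr, which encodes the membrane-cytoskeleton linker ezrin, had 12.7 and 15.1 kb in ASC, against 4.15 and 3.49 kb in FISC (limma adjusted p = 3.58e-05). Both calls were also made after scaling and at equal covered length. Map2k2, a kinase of the MAP kinase cascade, had 18.5 and 23.2 kb in ASC, against 13.1 and 12.6 kb in FISC (limma adjusted p = 0.00868), and was not called after scaling (adjusted p = 0.575) or at equal covered length (adjusted p = 0.219).

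Of 29 SH2 adaptors and SHB partners, 13 were called higher (all genes, 50.3%) and 2 lower (all genes, 5.49%). The median was 1.38 kb, close to that of all genes. Ptk2, focal adhesion kinase, had 19.7 and 22.6 kb in ASC, against 5.63 and 5.86 kb in FISC (limma adjusted p = 2.73e-05). Eps8, a substrate of receptor tyrosine kinases, had 9.45 and 9.85 kb in ASC, against 0 and 0.504 kb in FISC (limma adjusted p = 9.38e-06). Grb2, given above, is also in this list. The adaptors Shc3 (3.80 and 5.16 kb in ASC, against 8.35 and 8.21 kb in FISC, limma adjusted p = 0.00138) and Nck1 (3.03 and 4.33 kb in ASC, against 7.05 and 5.01 kb in FISC, limma adjusted p = 0.0233) were lower. After scaling the list had 7 higher and 12 lower, and at equal covered length 4 higher and 9 lower.

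Of 35 genes of filopodia and unconventional myosins, 25 were called higher (all genes, 50.3%), the largest share of the 6 lists. Another 2 were lower (all genes, 5.49%), and the median was 3.36 kb. After scaling 17 were higher and 4 lower, and at equal covered length 16 higher and 6 lower. Mtss1, with the values above, was higher (limma adjusted p = 0.000147). The motor Myo1e had 31.6 and 35.4 kb in ASC, against 17.8 and 14.7 kb in FISC (limma adjusted p = 0.00146), and Baiap2, which bends membrane at filopodia, had 21.5 and 30.4 kb in ASC, against 11.6 and 10.2 kb in FISC (limma adjusted p = 0.00162). These 3 were also called under both scalings. The motors Myo7a (2.46 and 3.51 kb in ASC, against 7.92 and 5.8 kb in FISC, limma adjusted p = 0.00171) and Myo1f (2.60 and 3.32 kb in ASC, against 4.20 and 4.62 kb in FISC, limma adjusted p = 0.021) were lower.

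Of 10 other BAH domain proteins, 5 were called higher (all genes, 50.3%) and 1 lower (all genes, 5.49%), with a median of 3.14 kb. Dnmt1, the maintenance DNA methyltransferase, had 17.2 and 18.2 kb in ASC, against 11.8 and 11.8 kb in FISC (limma adjusted p = 0.00819). Tnrc18, the closest relative of Bahcc1, had 16.0 and 17.7 kb in ASC, against 12.4 and 10.3 kb in FISC (limma adjusted p = 0.0127). After scaling by total covered length, Dnmt1 (-0.61 kb) and Tnrc18 (-0.78 kb) had differences of the opposite sign, neither called. At equal covered length Dnmt1 was called higher (3.21 kb, limma adjusted p = 0.023) and Tnrc18 was not called (0.283 kb, limma adjusted p = 0.821). After scaling 0 genes of the list were higher and 5 lower (at equal covered length, 2 and 2). Bahd1, a heterochromatin protein, had 6.62 and 9.59 kb in ASC, against 4.88 and 4.45 kb in FISC (limma adjusted p = 0.0106). Its difference was -1.14 kb at equal covered length and 0.591 kb after scaling, neither called. Mta3, a subunit of the NuRD complex, was lower (3.87 and 4.34 kb in ASC, against 5.96 and 5.67 kb in FISC, limma adjusted p = 0.022).

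Of 31 sialic acid and O-glycan genes 27 were covered in at least 2 libraries. Of these, 14 were called higher (all genes, 50.3%) and 2 lower (all genes, 5.49%), with a median of 1.09 kb, below that of all genes. St3gal3, which sialylates N-glycans, had 29.1 and 32.0 kb in ASC, against 11 and 10.5 kb in FISC (limma adjusted p = 0.000112). St6gal1, which adds sialic acid in another linkage, had 10.6 and 12.7 kb in ASC, against 2.98 and 1.5 kb in FISC (limma adjusted p = 2.65e-05). Galnt2, which starts O-glycans, had 27.2 and 33.4 kb in ASC, against 15.1 and 15.1 kb in FISC (limma adjusted p = 0.00212). It was called higher after scaling (5.35 kb, limma adjusted p = 0.00397) and not called at equal covered length (-0.32 kb). St3gal2, an enzyme with the same acceptors as St3gal1, went the other way, with 8.60 and 10.7 kb in ASC, against 16.5 and 18.1 kb in FISC (limma adjusted p = 0.00165). Galnt1 was also lower (2.14 and 2.08 kb in ASC, against 2.98 and 3.65 kb in FISC, limma adjusted p = 0.0157). After scaling the list had 6 higher and 5 lower, and at equal covered length 4 higher and 6 lower.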

How the data were processed

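H3K27ac ChIPmentation peaks of muscle stem cells were analysed, with 2 ASC and 2 FISC libraries. Per the labels' protocols, antibody-bound chromatin was tagmented and sequenced on a NextSeq 500. The submitters' processing notes name bcl2fastq (2.19), BWA, Picard, MACS2 and mm10. For settings, other versions and the role of the inputs, nothing is given in the sources used here. The deposited files are narrow peak lists with the authors' fold enrichment (a ratio), −log10 p and −log10 q values and a score, and they hold no counts.

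Kb under peaks was summed per library over each of 21887 protein-coding RefSeq genes (GRCm38.p6) and 50 kb on either side. The 17542 genes with peaks in 2 or more libraries entered a fit with limma 3.58.1 (eBayes with trend) in R 4.3.3, without scaling or block, with Benjamini-Hochberg adjustment at 0.05; the fit was tested on simulated data. Regions are unions of overlapping peaks (at least 1 base). The 6 genes, the pathway and marker lists and the tests were chosen with earlier results of these data known. Genes named are the 6, up to 3 called members of each list in each direction by absolute difference, the gene most like each of the 6 (for Myo10, not reported here), the genes ranked next to them and protein-coding neighbours within 50 kb. Septin9, the marker genes and single regions were named after their values were seen. Alternatives changed the peak threshold, list length, scaling, flank, bases counted, joining of peaks, filter, scale, block and libraries.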

Additional observations from a re-analysis of the deposited data

How the results depend on the processing

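The 6 genes kept both ASC values above both FISC values under each of 11 alternative measures. Each gene's difference stayed positive under all 15 settings run for it. Since a large gain in these same lists chose the genes, neither count is support for the gain. The summed difference of 159.6 kb became 85.2 kb at equal covered length, 98.1 kb scaled by total covered length, 116.9 kb in gene bodies and 42.7 kb in flanks, and ranged from 140.1 to 179.0 kb with 1 library left out. Of other alternatives for this sum, none moved it beyond the spread of the libraries. The 54 regions with peaks in both ASC and neither FISC library became 34 at −log10 q of at least 5, 34 at 5-fold enrichment, 6 at equal covered length, 13 in flanks and 30 with peaks joined within 500 bases. With 1 library left out they ranged from 57 to 122 (122 without ASC replicate 1, 104 without ASC replicate 2). Leaving out an ASC library asks for a peak in only 1 ASC list. Equal covered length removed mostly ASC peaks.

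The 8815 genes called higher became 3387 at equal covered length, 4062 scaled and 3753 in gene bodies, and ranged from 4988 (without FISC replicate 2; 5368 without FISC replicate 1) to 10645. The 963 called lower became 533 at 5-fold enrichment, 3458 at equal covered length and 6089 scaled, and ranged from 539 (without FISC replicate 1; 601 without FISC replicate 2) to 1248. Leaving out a library leaves 1 sample in its condition, assumed to vary like the other condition. The cause of these shifts was not tested, except that equal length and scaling take away the ASC lists' greater total length. With the replicate number as a block, 8264 genes were called higher and 942 lower; replicates of the same number share only a number, and their deviations correlated at -0.07 over genes.

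The share of gained bases in regions with peaks in both FISC libraries, an alternative set chosen after seeing the data, was 52.2% over both ASC libraries. It was 44.0% at −log10 q of at least 5, 34.6% at 5-fold enrichment, 72.3% at equal covered length and 62.1% with peaks joined within 500 bases. With 1 library left out it ranged from 49.7 to 58.2%. Leaving out a FISC library judges gained bases and regions by the other FISC list alone, which is a looser measure. Depth is unknown, and 2 libraries per condition limit the precision.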
